A study of Mus musculus with 6 samples.

Results

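The proteasome genes of mouse inguinal white adipose tissue were examined in 6 RNA-seq libraries, each from 1 mouse. Members were all protein-coding genes whose symbol begins with Psma, Psmb, Psmc, Psmd, Psme, Psmf or Psmg followed by a number, and 51 of the 24415 genes in the count table met this rule. Of these, 50 passed the filter on low counts, and Psma8, the testis form of an alpha subunit, did not (between 3 and 9 counts in each library). Psmc3ip, a cofactor of meiotic recombination, and Psme3ip1, a binding partner of an activator, match the symbol pattern without being proteasome subunits and are given apart. The groups were 3 wild-type (WT) mice and 3 Hsp20 KO mice, all 12 weeks old, non-fasted and on a C57BL/6 background. Hspb6 encodes Hsp20, a small heat shock protein, and no source used here gives how the knockout allele was made, in which tissues it acts or the sex of the mice.

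The proteasome is the protease that breaks down ubiquitin-tagged proteins in the cytosol and nucleus. Its barrel-shaped core is built from outer rings of alpha subunits, which gate the entrance, and inner rings of beta subunits, of which Psmb5, Psmb6 and Psmb7 carry the active sites. In cells exposed to interferon, and constantly in many immune cells, these are replaced by Psmb8, Psmb9 and Psmb10, giving the immunoproteasome, whose peptides feed antigen presentation. A regulatory particle made of Psmc ATPases and Psmd non-ATPase subunits recognises, unfolds and feeds substrates into the core. In thermogenic fat, the transcription factor Nfe2l1 is known to maintain proteasome gene expression.

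Library totals ran from 14078936 to 32648746 counts, and every tested member had at least 22 counts in each library. Hspb6 had between 289 and 325 counts in the WT libraries, and 245, 33 and 53 in replicates 1 to 3 of the group labelled knockout, called KO-labelled libraries in what follows. KO-labelled replicate 1 therefore stood close to WT in the targeted gene (8.86 CPM, counts scaled to a common library size, against 8.95 to 12.6 in WT), the gene did not pass the test (log2 change -1.08 ± 0.51, edgeR adjusted p = 0.227), and results are given with and without it where that matters. All white adipocyte markers (Adipoq, Plin1, Lep, Cidec and Fabp4) were present, with a summed level of 8630 to 11000 CPM in WT and 8730 to 12800 CPM in the KO-labelled libraries. The summed level of the thermogenic markers Ucp1, Cidea, Cox7a1 and Elovl3 was 37.0 to 49.96 CPM in WT and 157 to 589 CPM in the KO-labelled libraries. KO-labelled replicate 1 had the lowest sum of its group (156.5 CPM), above every WT library. In bulk tissue, fewer cells of a type and less RNA per cell cannot be told apart.

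The 31 constitutive subunits had slightly higher mean levels in the KO-labelled libraries, while few single genes passed the test. Psmb3, Psmd3 and Psmd4 rose, between 1.26-fold and 1.29-fold, and Psmb11 fell. These are 3 of 50 members called higher and 1 called lower (edgeR quasi-likelihood test, Benjamini-Hochberg adjusted p under 0.05 over all 15994 genes tested), that is 6% and 2%, against 4.23% and 3.42% of all genes tested, so the share of calls among members lay near the background. In either direction it was 4 of 50 (8%) against 7.65%. At an unadjusted p under 0.05, 13 members (26%) were higher, against 13.3% of all genes, and 1 (2%) was lower, against 12.7%. The direction was more uniform than the calls: 45 of 50 members had a log2 change above 0, whether called or not, against 50.1% of all genes tested, and among the 31 constitutive subunits of the core and the regulatory particle it was 31 of 31. The median log2 change was 0.15 over the 50 members and 0.17 over these 31 subunits, against 0.0006 over all genes. The groups did not overlap, with the KO-labelled libraries higher, for 20 members (40%), against 16.9% of all genes tested, and with them lower for 1 (2%), against 15.6%. Genes of a complex vary together within a library, so these shares describe 6 mice and are not independent observations. All 4 thermogenic markers rose alongside these values, and their part in them was not tested.

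**Figure D1:**
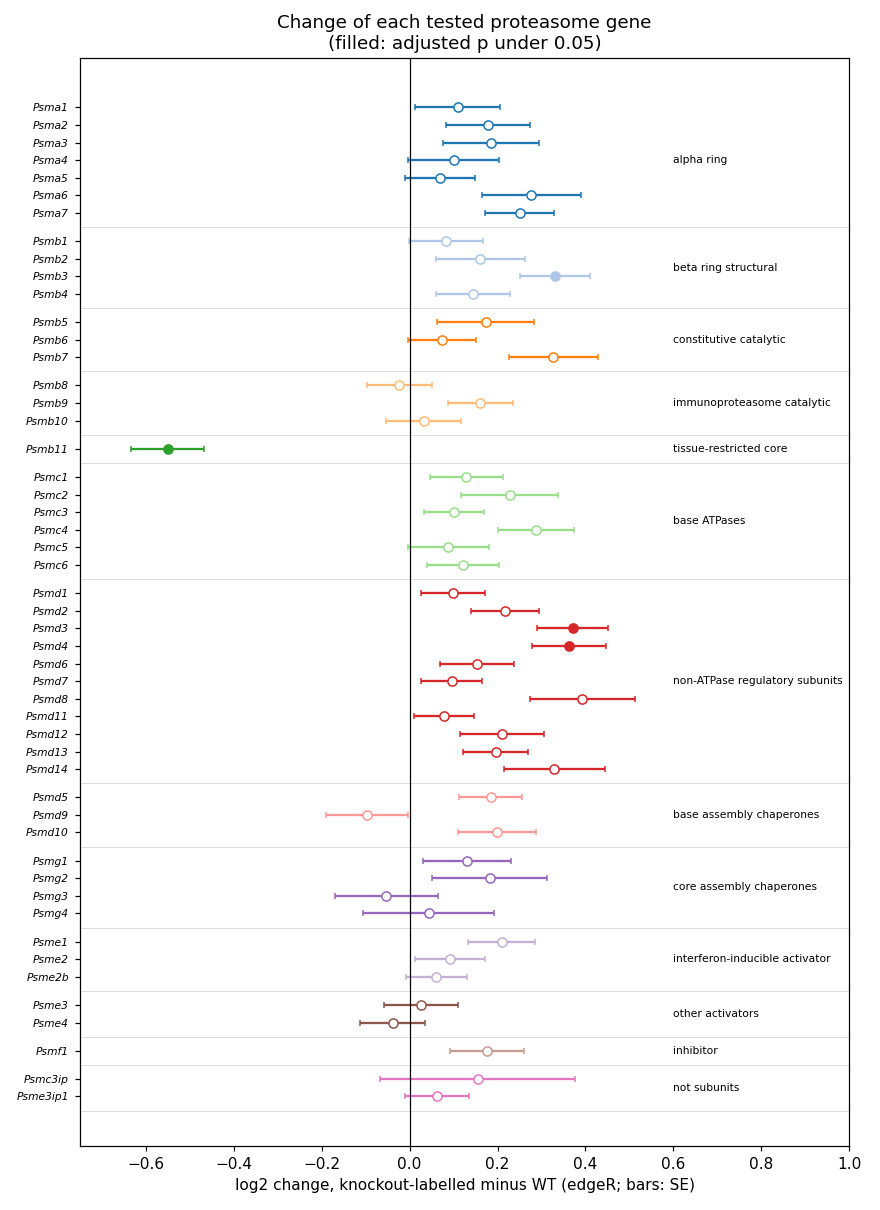
Log2 change between the KO-labelled libraries and WT (horizontal axis, edgeR, bars show the SE) for the 50 tested members, grouped by role, with filled points for an adjusted p under 0.05. All 31 constitutive subunits lie right of 0, Psmb3, Psmd3 and Psmd4 are filled on the right, and Psmb11 is filled on the left at -0.55.

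As a share of all counts, the 51 members together took 0.337%, 0.380% and 0.376% of WT replicates 1 to 3 and 0.381%, 0.411% and 0.405% of KO-labelled replicates 1 to 3. The lowest KO-labelled library lay just above the highest WT library. Within the groups, WT replicate 1 was the lowest, with a median over members of -0.09 on the log2 scale from the WT mean, against 0.04 in both other WT libraries. KO-labelled replicates 1 to 3 lay at 0.08, 0.12 and 0.22. In WT replicate 1, gene IDs without a symbol held 5.74% of the counts, against 1.298% to 3.28% in the others. The part of these counts in the lower values of that library was not tested.

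**Figure D2:**
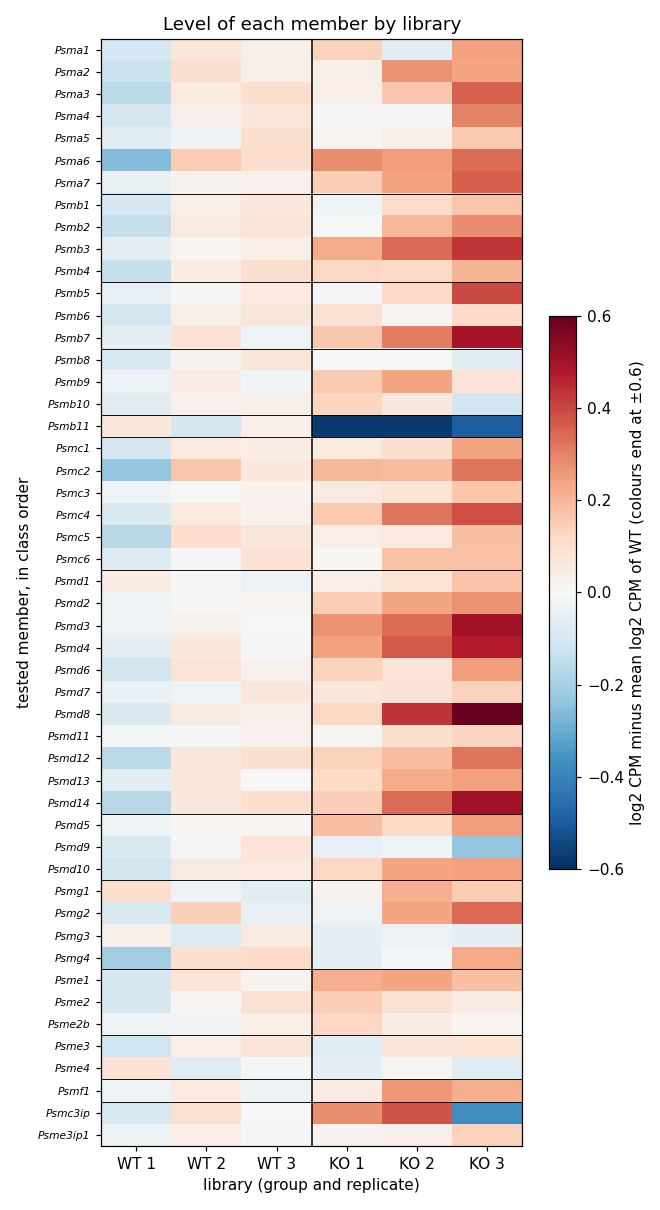
Level of each tested member (rows, in class order) in each library (columns) as log2 CPM minus the mean log2 CPM of WT, red for higher and blue for lower. Red is deepest in KO-labelled replicate 3, for Psmd8, Psmd3, Psmb7, Psmd14 and Psmd4, Psmb11 is blue in all 3 KO-labelled libraries, and WT replicate 1 is pale blue in most rows.

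In the alpha ring, 7 of 7 members had a positive log2 change (median 0.18), against 50.1% of all genes tested. The test called 0 of 7, and 2 were higher at an unadjusted p under 0.05, against 13.3% of all genes. The median was 0.0999 without WT replicate 1 and 0.105 without KO-labelled replicate 3. Psma6, the member with the largest change, measured 71.7, 95.1 and 92.3 CPM in WT replicates 1 to 3 and 104, 102 and 108 CPM in KO-labelled replicates 1 to 3. The groups did not overlap, although WT replicate 1 lay far below the other WT libraries, and the log2 change was 0.28 ± 0.11 (SE, edgeR adjusted p = 0.171), or 0.152 without WT replicate 1. Psma7 was steadier, with 84.8, 88.8 and 89.0 CPM in WT and 97.1, 103 and 112 CPM in the KO-labelled libraries (log2 change 0.25 ± 0.08, edgeR adjusted p = 0.0921). Psma5 had the smallest change of the ring, from 71.7 ± 4.21 to 75.3 ± 4.04 CPM (SD, n = 3 each), and its groups overlapped. Psma1, Psma2, Psma3 and Psma4 had log2 changes from 0.10 to 0.18, all with overlapping groups.

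Among the beta subunits without an active site, Psmb3 rose and Psmb1, Psmb2 and Psmb4 did not pass. That is 1 of 4 called higher, against 4.23% of all genes tested. Psmb3 (gene ID 26446, chromosome 11, 97703434 to 97713500 on GRCm38) measured 55.3, 58.2 and 59.2 CPM in WT replicates 1 to 3. In KO-labelled replicates 1 to 3 it measured 67.2, 72.8 and 77.4 CPM, so that each lay above each WT library. The log2 change was 0.33 ± 0.08 (SE, 1.26-fold, edgeR adjusted p = 0.0471). Psmb1 had the smallest change of these 4 subunits, from 102 ± 6.20 to 108 ± 7.25 CPM (SD, n = 3 each, edgeR adjusted p = 0.575), with overlapping groups. Psmb4 did not overlap (100.7 to 118.6 CPM in WT and 120 to 128 CPM in the KO-labelled libraries), but its difference did not pass (edgeR adjusted p = 0.318).

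The ATPases of the regulatory particle form the ring that unfolds substrates. Of these, 6 of 6 had a positive log2 change (median 0.125), against 50.1% of all genes tested. The test called 0 of 6, and 1 was higher at an unadjusted p under 0.05, against 13.3% of all genes. The median was 0.0791 without WT replicate 1. Psmc4 had the largest change: 58.5, 64.8 and 63.4 CPM in WT against 69.3, 77.6 and 81.3 CPM in the KO-labelled libraries, without overlap (log2 change 0.29 ± 0.09, edgeR adjusted p = 0.0842). Psmc5 had the smallest, from 77.4 ± 7.54 to 82.3 ± 4.39 CPM (edgeR adjusted p = 0.595), with overlap. Psmc4 lies on chromosome 7, -2511 kb from Hspb6, and Psmd8, described below, lies -1378 kb from it. A knockout allele is passed on together with its neighbouring sequence, and for these 2 genes the part of their position was not tested.

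Of the non-ATPase subunits, 11 of 11 had a positive log2 change (median 0.21), against 50.1% of all genes tested. The test called 2 of 11 higher, Psmd3 and Psmd4, against 4.23% of all genes. At an unadjusted p under 0.05, 6 of the 11 were higher, against 13.3% of all genes. The groups did not overlap, with the KO-labelled libraries higher, for 7 of the 11, against 16.9% of all genes. Psmd3, a scaffold subunit of the lid (gene ID 22123, chromosome 11, 98682554 to 98695978), measured 81.5, 84.1 and 82.7 CPM in WT replicates 1 to 3 and 99.8, 104 and 117 CPM in KO-labelled replicates 1 to 3. The WT libraries lay within 3 CPM of each other and well below every KO-labelled library, and the log2 change was 0.37 ± 0.08 (1.29-fold, edgeR adjusted p = 0.0369). Psmd4, a receptor for ubiquitin chains (gene ID 19185, chromosome 3, 95032688 to 95042614), measured 96.4, 105 and 99.4 CPM in WT and 118, 129 and 139 CPM in the KO-labelled libraries. Its groups did not overlap either, and the log2 change was 0.36 ± 0.08 (1.29-fold, edgeR adjusted p = 0.0436).

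Psmd8, a lid subunit, had the largest increase in log2 terms of all members, 0.39 ± 0.12, without passing (edgeR adjusted p = 0.0892). It measured 81.6, 90.0 and 88.4 CPM in WT and 94.4, 117 and 131 CPM in the KO-labelled libraries, and the spread among the latter was wider than for Psmd3. Psmd14, the deubiquitinase of the lid, went from 57.5 ± 5.56 to 72.3 ± 8.89 CPM (SD, n = 3 each, edgeR adjusted p = 0.121), without overlap. Psmd2, a scaffold of the base and the most abundant member in CPM, went from 212 ± 3.20 to 247 ± 10.3 CPM (edgeR adjusted p = 0.128), again without overlap. Psmd11 had the smallest change of this class, from 78.8 ± 1.15 to 83.2 ± 3.56 CPM, with overlap. Psmd13 shares 152 exonic bases with Sirt3 on the opposite strand, a mitochondrial deacetylase with a log2 change of 0.70 (edgeR adjusted p = 0.0607). No source used here gives the strand setting of the counting, so the log2 change of Psmd13 (0.20, edgeR adjusted p = 0.147) may include reads of Sirt3.

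The 3 calls among constitutive subunits were lost when most single libraries were left out, while their log2 changes stayed of similar size. Without WT replicate 1, 2 or 3, or without KO-labelled replicate 2 or 3, edgeR called 0 of 50 members higher. Of all genes, 2%, 0.488%, 0.464%, 2% and 2.01% were called higher in these fits, in that order, so 0 of 50 lay near the background there. In the same fits the log2 change ran from 0.31 to 0.39 for Psmd3, from 0.312 to 0.396 for Psmd4 and from 0.289 to 0.351 for Psmb3. Without KO-labelled replicate 1 it called 6, adding Psmb7, Psmc4 and Psmd8 to Psmb3, Psmd3 and Psmd4, against 5.82% of all genes. The count of constitutive subunits with a positive log2 change was 31 of 31 with any single library left out, and their median ranged from 0.11 without WT replicate 1 or KO-labelled replicate 3 to 0.24 without KO-labelled replicate 1. Without WT replicate 1 the median of all members was 0.0968. The DESeq2 test called 7 members higher, the same 6 and Psmd2, against 7.1% of all genes.

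**Figure D3:**
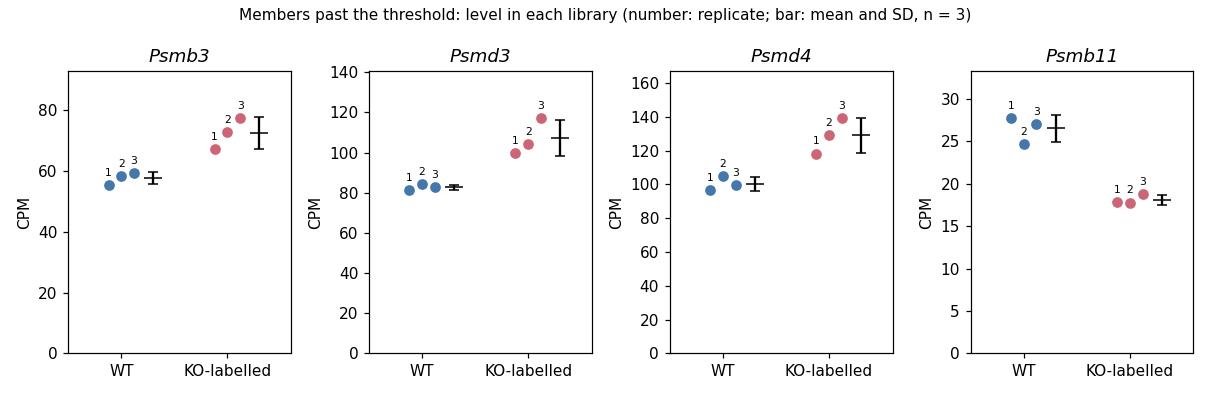
Level in CPM (vertical axis, from 0) of the 4 members past the threshold in each library, with the replicate number above each point and the mean and SD of 3 libraries beside it. The groups do not overlap for any of the 4; Psmb3, Psmd3 and Psmd4 are higher and Psmb11 is lower in the KO-labelled libraries.

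Start-site regions were read for the called constitutive genes and the Psmb5 and Psmb8 pair, to show the sequence beside which these transcripts begin. RefSeq's table for GRCm38.p6 held regions from 250 bases before to 50 after the start for 43 of the 51 members. Psmd3 is not among them. They were searched on both strands for TGACTCAGC, a form of the antioxidant response element bound by Nfe2l1 with its partners, for CCAAT, for TTCNNNGAA, the gamma-activated site, and for the core of an interferon response element, GAAA repeated after a gap of 2 bases. These 43 members had 47 regions. The first motif was in 0 of the 47 and in 0.454% of all 32851 regions of this length. CCAAT was in 16 of the 47 and 37.4% of all, TTCNNNGAA in 3 and 8.3%, and the repeated GAAA in 5 and 3.44%. The latter 5 were regions of the called genes Psmb3 and Psmd4, and of Psmd9, Psme1 and Psmg4, which did not pass the test. A match is a description of letters, not of binding, and no match says only that these letters are not in this window. The regions are printed 5′ to 3′ on the strand of the gene, with matches on either strand in capitals: Psmb3 at chr11:97703184-97703483 (plus strand), Psmd4 at chr3:95042565-95042864 (minus), Psmb5 at chr14:54617946-54618245 (minus) and Psmb8 at chr17:34197945-34198244 (plus).
Psmb3: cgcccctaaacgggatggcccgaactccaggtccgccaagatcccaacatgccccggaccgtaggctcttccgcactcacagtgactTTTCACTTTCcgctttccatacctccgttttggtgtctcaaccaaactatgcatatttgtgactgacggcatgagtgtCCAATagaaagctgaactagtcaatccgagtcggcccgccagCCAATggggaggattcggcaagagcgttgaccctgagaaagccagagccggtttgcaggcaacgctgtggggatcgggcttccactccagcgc
Psmd4: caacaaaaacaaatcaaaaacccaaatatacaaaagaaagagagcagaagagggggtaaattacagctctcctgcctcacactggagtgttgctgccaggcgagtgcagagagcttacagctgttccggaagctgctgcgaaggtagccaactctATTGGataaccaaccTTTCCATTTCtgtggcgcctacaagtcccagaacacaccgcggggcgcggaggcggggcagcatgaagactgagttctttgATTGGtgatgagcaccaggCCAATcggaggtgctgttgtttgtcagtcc
Psmb5: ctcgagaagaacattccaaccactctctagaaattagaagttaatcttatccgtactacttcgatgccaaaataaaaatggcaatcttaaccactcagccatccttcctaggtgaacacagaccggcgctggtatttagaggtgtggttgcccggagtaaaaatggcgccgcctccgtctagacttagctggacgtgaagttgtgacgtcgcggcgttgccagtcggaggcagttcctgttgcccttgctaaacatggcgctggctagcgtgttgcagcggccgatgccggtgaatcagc
Psmb8: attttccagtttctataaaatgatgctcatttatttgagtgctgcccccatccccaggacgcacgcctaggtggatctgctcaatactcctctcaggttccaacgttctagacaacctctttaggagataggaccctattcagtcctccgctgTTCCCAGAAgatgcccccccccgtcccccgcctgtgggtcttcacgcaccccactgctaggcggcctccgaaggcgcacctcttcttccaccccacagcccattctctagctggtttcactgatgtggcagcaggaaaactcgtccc
Psmb3 and Psmd4 each hold CCAAT and the repeated GAAA, Psmb8 holds 1 TTCNNNGAA, and Psmb5 holds none of the 4 motifs.

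The catalytic subunits were compared as the 3 pairs in which an immunoproteasome subunit replaces a constitutive one. None of the 6 passed the test, against 4.23% of all genes called higher and 3.42% lower. Psmb7 alone was higher at an unadjusted p under 0.05, against 13.3% of all genes. Psmb5 measured 56.7, 58.5 and 61.2 CPM in WT and 58.3, 63.6 and 77.4 CPM in the KO-labelled libraries, with replicate 3 of the latter far above the rest and the groups overlapping (log2 change 0.17 ± 0.11, edgeR adjusted p = 0.364). Psmb8, which takes its place, measured 125, 135 and 139 CPM in WT and 133, 132 and 127 CPM in the KO-labelled libraries, with the latter inside the WT range (log2 change -0.02 ± 0.07, edgeR adjusted p = 0.874). Mir686, a microRNA gene inside an exon of Psmb5 on the same strand, has counts of its own in the table (14.9 CPM in WT and 16.1 CPM in the KO-labelled libraries), and no source used here gives how the counter divided reads between the 2.

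Psmb6 measured 65.4, 71.8 and 73.5 CPM in WT and 74.8, 71.0 and 76.1 CPM in the KO-labelled libraries, with overlap (edgeR adjusted p = 0.588). Psmb9, its immunoproteasome counterpart, measured 47.4, 50.2 and 47.9 CPM in WT and 54.2, 57.2 and 51.3 CPM in the KO-labelled libraries. These did not overlap, though the gap was small, and the log2 change of 0.16 ± 0.07 did not pass (edgeR adjusted p = 0.218). Psmb9 shares 212 exonic bases with Tap1, the peptide transporter gene on the opposite strand.

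Psmb7 measured 106, 117 and 108 CPM in WT and 123, 136 and 156 CPM in the KO-labelled libraries, without overlap (log2 change 0.33 ± 0.10, edgeR adjusted p = 0.09). It shares 405 exonic bases with the kinase gene Nek6 on the opposite strand, whose own log2 change was 0.21 (edgeR adjusted p = 0.488). Psmb10, its counterpart, measured 52.6, 56.0 and 56.4 CPM in WT and 60.2, 57.5 and 50.8 CPM in the KO-labelled libraries, where replicate 3 lay below every WT library and replicates 1 and 2 above (edgeR adjusted p = 0.848).

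The ratio of read counts within a library needs no scaling between libraries. The Psmb8 to Psmb5 ratio was 2.20, 2.31 and 2.28 in WT and 2.28, 2.08 and 1.64 in KO-labelled replicates 1 to 3, a difference of -0.19 on the log2 scale (exact permutation test, two-sided, p = 0.3, or 0.45 adjusted over the 3 pairs). The Psmb9 to Psmb6 ratio was 0.725, 0.699 and 0.651 in WT and 0.724, 0.805 and 0.674 in the KO-labelled libraries, a difference of 0.08 (exact permutation p = 0.5, or 0.5 adjusted). The Psmb10 to Psmb7 ratio was 0.497, 0.478 and 0.521 in WT and 0.488, 0.422 and 0.326 in the KO-labelled libraries, a difference of -0.30 (exact permutation p = 0.2, or 0.45 adjusted). With 3 libraries against 3 the smallest p this test allows is 0.1, so the design could not reach 0.05. In each pair the groups overlapped, and a difference in the use of immunoproteasome over constitutive subunits was not detectable with these libraries. KO-labelled replicate 3, which had the fewest counts, was the lowest of the 6 for Psmb8 to Psmb5 and Psmb10 to Psmb7. Without it these differences were -0.05 and -0.14. Without KO-labelled replicate 1, the library with Hspb6 close to WT, they were -0.29 and -0.43, and the groups of 3 and 2 libraries did not overlap (exact permutation p = 0.1 for both, the smallest that 3 against 2 allows).

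**Figure D4:**
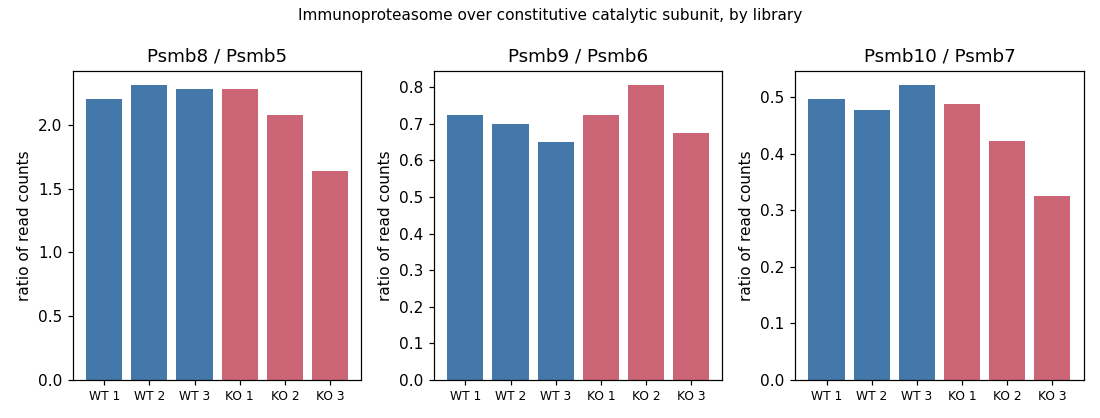
Ratio of read counts (vertical axes, from 0) of each immunoproteasome subunit to the constitutive subunit it replaces, in each library. The bars of KO-labelled replicate 3 are the lowest for Psmb8 over Psmb5 (1.64) and for Psmb10 over Psmb7 (0.326), and the groups overlap in every panel.

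Per kilobase of transcript, Psmb8 made up 55.5% ± 0.598 of the Psmb5 and Psmb8 level in WT and 52.3% ± 4.22 in the KO-labelled libraries (SD, n = 3 each). Psmb9 made up 29.0% ± 1.11 and 30.2% ± 1.89 of its pair, and Psmb10 made up 30.6% ± 0.925 and 26.6% ± 3.91. The order of the pairs was thus uneven in WT, with the Psmb8 share above the other 2 by far more than the spread between mice. The Psmb10 share was above the Psmb9 share in all 3 WT libraries, by a margin that was small beside this.

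Immunoproteasome transcripts are abundant in leukocytes, and the inguinal depot holds a lymph node. The summed leukocyte markers Ptprc, Laptm5, Coro1a and Cd52 ranged from 1440 to 1580 CPM in WT and from 1150 to 1750 CPM in the KO-labelled libraries. The B cell markers ranged from 489 to 534 and from 330 to 672 CPM, the T cell markers from 173 to 208 and from 182 to 269 CPM, and the macrophage markers from 545 to 568 and from 365 to 558 CPM. None of these 16 markers was at 0 or passed the test. KO-labelled replicate 3 had the lowest leukocyte sum of the 6 (1152 CPM), beside the lowest Psmb8 and Psmb10 ratios. KO-labelled replicate 2 had the highest leukocyte sum (1754 CPM), beside the second-lowest of both ratios. The B and T cell sums were also highest in that library (671.8 and 268.9 CPM). The B cell sum was lowest in KO-labelled replicates 3 and 1 (330.2 and 340.9 CPM), and replicate 1 had both ratios inside the WT range (2.28 and 0.488). Macrophage sums were lowest in KO-labelled replicates 2 and 3 (364.6 and 424 CPM), which had the lowest of both ratios. The part of leukocyte content in the ratios was not tested.

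The activator that caps the immunoproteasome is built from Psme1 and Psme2, both induced by interferon. Psme1 measured 101, 115 and 110 CPM in WT and 126, 128 and 123 CPM in the KO-labelled libraries. These did not overlap, but the log2 change of 0.21 ± 0.08 did not pass (edgeR adjusted p = 0.134). Psme2 measured 117, 127 and 134 CPM in WT and 139, 133 and 129 CPM in the KO-labelled libraries, with overlap (edgeR adjusted p = 0.506). Psme2b, a copy of Psme2 elsewhere in the genome, had a mean of 99.6 CPM in WT, and since the copies can share reads, the values of both are uncertain. In the list of interferon response and antigen processing genes, 0 of 15 rose and 1 fell, with a median log2 change of 0.06. Of all genes tested, 4.23% rose and 3.42% fell, so for a list of 15 these counts lay near the background. For Irf1, a transcription factor of the interferon response, the log2 change was 0.23 ± 0.09 (SE, edgeR adjusted p = 0.149). Nlrc5, an activator of class I genes, had 0.03 (edgeR adjusted p = 0.909), Tap1 had 0.10 (0.499) and B2m, the light chain of class I molecules, had -0.13 (0.628). The gene that fell was Ifngr1, a chain of the interferon gamma receptor, named after its values were seen: 224, 289 and 288 CPM in WT and 185, 150 and 161 CPM in the KO-labelled libraries (log2 change -0.69 ± 0.13, edgeR adjusted p = 0.0253).

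**Figure D5:**
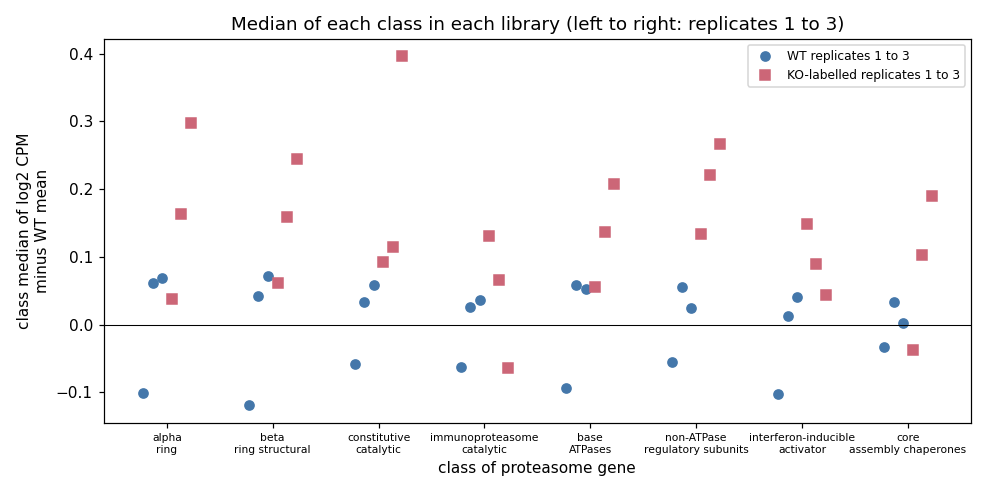
Median over the members of each class of log2 CPM minus the WT mean (vertical axis) in each library, for 8 classes. The constitutive classes are highest in KO-labelled replicate 3, with 0.40 for the constitutive catalytic subunits, where the immunoproteasome catalytic subunits lie at -0.06.

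Psmb11 was the one member that fell. It encodes the beta subunit of the thymoproteasome, known from cortical epithelial cells of the thymus. The gene (gene ID 73902, chromosome 14, 54625310 to 54629556) measured 27.8, 24.7 and 27.0 CPM in WT and 17.8, 17.8 and 18.8 CPM in the KO-labelled libraries, from 253 to 894 counts a library. Every KO-labelled library lay below every WT library, with little spread in either group, and the log2 change was -0.55 ± 0.08 (0.683-fold, edgeR adjusted p = 0.0131). The call held without WT replicate 1 and without each KO-labelled library in turn, and it was lost without WT replicate 2 (log2 change -0.598, edgeR adjusted p = 0.0539) or 3 (-0.535, 0.0786), with a log2 change of similar size. Per kilobase its level in WT was 6.24 CPM, against 65.4 for Psmb5 and 81.7 for Psmb8, the other genes for this active site. In GENCODE M21 the counted gene is a single exon of 4247 bases with no exon of another gene over it, and which part of it the reads covered cannot be seen in counts per gene.

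None of the 7 chaperones that assemble the particle passed the test. Of all genes tested, 4.23% were called higher and 3.42% lower, so 0 of 7 lay near the background. Of the base chaperones, Psmd10 (gankyrin) went from 17.8 ± 1.17 to 20.5 ± 0.924 CPM and Psmd5 from 32.3 ± 0.463 to 36.7 ± 1.67 CPM, both without overlap (edgeR adjusted p = 0.209 and 0.154). Psmd9, the third, measured 19.7, 21.0 and 22.1 CPM in WT and 20.2, 20.6 and 17.8 CPM in the KO-labelled libraries (edgeR adjusted p = 0.557). Of the core chaperones, 0 of 4 passed and 0 were higher or lower at an unadjusted p under 0.05. Psmg2, which pairs with Psmg1 in building the alpha ring, had the largest log2 change, 0.18 ± 0.13, and Psmg3 the lowest, -0.05 ± 0.12 (edgeR adjusted p = 0.422 and 0.815). All 4 overlapped between groups. Groups without overlap made up 16.9% of all genes with the KO-labelled libraries higher, as for Psmd10 and Psmd5, and 15.6% with them lower. At 179 to 234 counts in WT and 88 to 181 in the KO-labelled libraries, Psmg3 is measured less precisely than the ring subunits.

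The remaining regulators did not pass. Psme3, a nuclear activator, went from 90.8 ± 6.39 to 92.5 ± 5.46 CPM (edgeR adjusted p = 0.875). Psme4, a large activator linked to chromatin, went from 76.5 ± 4.30 to 74.4 ± 2.45 CPM (edgeR adjusted p = 0.786), and Psmf1, an inhibitor in vitro, from 25.8 ± 0.905 to 29.2 ± 2.23 CPM (edgeR adjusted p = 0.238). Of the 2 genes that are no subunits, Psmc3ip had a mean of 2.12 CPM and Psme3ip1 of 33.4 CPM in WT (edgeR adjusted p = 0.704 and 0.637).

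Levels per kilobase of transcript differed more between classes than between groups. In WT the median was 71.3 CPM per kilobase for the alpha ring, 66.6 for the beta subunits without an active site, 88.0 for the constitutive catalytic subunits and 41.9 for the immunoproteasome ones. It was 51.4 for the ATPases and 38.5 for the non-ATPase subunits. The activator genes Psme1, Psme2 and Psme2b had 97.5, 130 and 119 CPM per kilobase, and the base and core assembly chaperones had medians of 8.06 and 11.5. Within the alpha ring, whose subunits occur once each in a ring, levels ran from 26.9 for Psma2 to 95.8 for Psma7, and the transcript chosen for the length bears on such values.

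Genes that work with the proteasome were taken from a list of 29, of which 28 were in the table and tested. None rose or fell, against 4.23% and 3.42% of all genes tested, so 0 of 28 lay near the background. Of the 28, 21 had a positive log2 change, against 50.1% of all genes, and the median was 0.05, against 0.0006. Pomp, which helps close the core, measured 55.4, 67.1 and 68.2 CPM in WT and 71.9, 70.4 and 69.6 CPM in the KO-labelled libraries (edgeR adjusted p = 0.351). Adrm1, a ubiquitin receptor of the base, measured 69.2, 73.6 and 71.7 CPM in WT and 75.8, 91.5 and 96.5 CPM in the KO-labelled libraries, without overlap (log2 change 0.30 ± 0.10, edgeR adjusted p = 0.112). Nfe2l1 measured 456, 449 and 419 CPM in WT and 463, 489 and 573 CPM in the KO-labelled libraries (log2 change 0.20 ± 0.11, edgeR adjusted p = 0.305). Adrm1 and Nfe2l1 were highest in KO-labelled replicate 3, while Pomp was highest in KO-labelled replicate 1.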

How the data were processed

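RNA-seq counts of 6 libraries were used. The deposited values are raw counts of reads for each gene, in 1 column per mouse. Of tools, TopHat, DESeq, bcl2fastq and CASAVA 1.8 appear in the submitters' processing notes, with the builds mm10 and GRCm38. Counter, annotation and strand setting: not given in the sources used here. A symbol was found for 24334 of 24415 gene IDs in RefSeq's GRCm38.p6 table. Genes were filtered with filterByExpr (minimum count 10, minimum total 15), scaled by TMM and tested with edgeR 4.0.16 in R 4.3.3 (quasi-likelihood F test, a model of genotype alone), and p-values were adjusted by Benjamini-Hochberg over 15994 genes, with a threshold of 0.05. SEs are those implied by the F statistic. CPM uses TMM-scaled totals, and medians by library use log2 CPM with a prior count of 2. Levels per kilobase use the principal transcript of GENCODE M21. Catalytic pairs were compared by exact permutation over libraries.

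Alternatives were DESeq2 size factors, upper quartile scaling, other filters (none, or a mean of at least 1 CPM), DESeq2 1.42.0, limma-voom (limma 3.58.1), a replicate block and leaving out each library. The fit was tested on simulated data. Named with library values were the catalytic pairs, Psme1, Psme2, called members and the extremes of each class. One gene that this rule names is not reported here. Members, gene lists and alternatives were chosen with earlier results of these data known. Totals of 14078936 to 32648746 counts set the precision of low genes. The closest pair of libraries within a group still differed beyond sampling noise (chi-square 17.0 times its degrees of freedom).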

Additional observations from a re-analysis of the deposited data

How the results depend on the processing

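Psmd3, Psmd4 and Psmb11 were called under DESeq2 size factors, upper quartile scaling, both other filters, DESeq2 and limma-voom, and Psmb3 under all of these except no filter (adjusted p = 0.0517). DESeq2 called 7 members higher, and 1135 genes higher and 1024 lower in all. Same-numbered WT and KO-labelled libraries showed no clear correlation (-0.038, 0.0917 and -0.0957), a check that cannot exclude a shared batch. With a replicate block edgeR called 0 members higher (adjusted p = 0.0767 for Psmd3, 0.0797 for Psmd4 and 0.0804 for Psmb3) and 1 lower. It called 226 genes (1.41%) higher and 169 (1.06%) lower in all. Leaving out each library gave 0 to 6 members higher and 0 to 1 lower, and 75 to 941 genes higher and 53 to 730 lower. The median of the immunoproteasome catalytic subunits, which is the value of Psmb10, ranged from -0.0195 to 0.106, turning negative when replicate 1 of either group was left out (-0.00319 without that of WT). The median of Psme3 and Psme4 was 0.00827 with upper quartile scaling, and ranged from -0.0306 to 0.0239 over single omissions. Signs also turned for Psmb8 (-0.0727 to 0.0111), Psme3 (-0.0372 to 0.0761), Psme4 (-0.0746 to 4.54e-05) and Psmg4 (-0.059 to 0.101). The cause was not tested. All pair ratios kept their sign.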
